A study of Mus musculus with 6 samples.

Results

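The 5 NF-kB subunit genes and the 3 genes of the core IkB kinase (IKK) complex were examined in mouse bone marrow derived macrophages. They were taken by symbol from the gene count table as Nfkb1, Nfkb2, Rela, Relb, Rel, Chuk, Ikbkb and Ikbkg, and all 8 were found among 55023 listed genes. All 8 also passed the filter on low counts that left 18812 genes for testing. RNA was sequenced from macrophages held for 24 h in 1 of 3 conditions, with 2 libraries each: vehicle, LTα1β2 alone, and LCL161 together with LTα1β2. LTα1β2 is the membrane type of lymphotoxin and binds the lymphotoxin beta receptor. LCL161 is a drug-like compound that antagonises the ubiquitin ligases cIAP1 and cIAP2. There was no group with LCL161 alone, so what LCL161 adds was read only in the presence of LTα1β2, and an effect of LCL161 by itself cannot be told apart from a joint effect. Strain, sex and age of the mice, doses, and how the marrow cells were differentiated are not stated in the labels. Nothing in the labels says whether the 2 libraries of a group came from separate cultures or animals, so each p-value reflects the spread among these 6 libraries alone, and that spread may be technical.

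NF-kB proteins are dimers of Rel-family subunits that are held inactive in the cytoplasm by IkB proteins. In the canonical pathway a kinase complex of IKKalpha, IKKbeta and the scaffold NEMO marks IkB proteins for degradation and frees dimers such as p50 with RelA. In the noncanonical pathway, which the lymphotoxin beta receptor feeds, loss of cIAP activity lets the kinase NIK accumulate, NIK and IKKalpha drive processing of the p100 precursor to p52, and p52 enters the nucleus with RelB. These steps act on proteins, whereas the values here are levels of RNA.

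Total counts were 14718368 to 19049613 per library. The macrophage markers Csf1r, Adgre1, Cd68, Lyz2, Itgam, Mertk and Fcgr1 summed to 27400 to 33800 CPM (reads per library scaled to a common total with TMM factors) with overlapping ranges in the 3 groups. Lyz2 alone gave 22300 to 28000 CPM, so the overlap of the sums describes mainly this gene. Of the 7 markers, 5 rose with LTα1β2, where 12.8% of all genes tested were called higher. On adding LCL161, 2 rose and 3 fell, where 10.6% of all genes were higher and 15.1% lower. Stromal markers moved with the groups: their 9 genes summed to 6040 to 8910 CPM with vehicle, 2450 to 3490 with LTα1β2 and 676 to 738 with both agents, with Dcn and Lum under 1 CPM in every library. Neutrophil markers summed to 442 and 629 CPM with vehicle, 932 and 718 with LTα1β2, and 355 and 370 with both agents, so these groups did not overlap either. The dendritic, B, T and NK, and endothelial lists summed to at most 37.3 CPM. The part of other cells in the results below was not tested. In bulk RNA, fewer cells of a type and less RNA per cell cannot be told apart.

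The pattern over the 3 conditions differed between members. Nfkb2 and Relb, the partners of the noncanonical dimer, stood 4.79-fold and 3.59-fold higher with both agents than with LTα1β2 alone. Rel rose 1.73-fold and Ikbkg 1.43-fold in the same comparison. Chuk, which encodes the kinase that acts on p100, stayed between 77.2 and 86.5 CPM in all 6 libraries. Nfkb1 and Rela were higher in both LTα1β2 libraries than in both vehicle libraries, without passing the test. That order of libraries was not particular to them, since it held for 6 of the 8 members. Over all genes tested, these 2 groups did not overlap for 63.4%, with 29.6% higher.

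**Figure D1:**
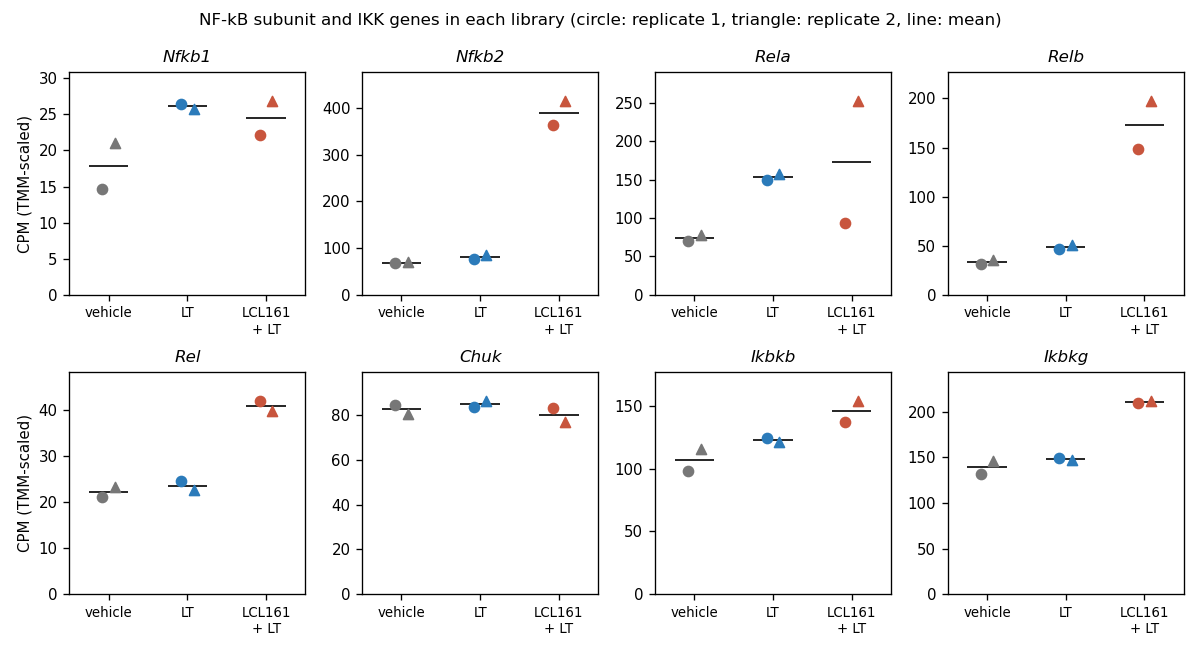
Normalised level (CPM, linear axes from 0, a scale of its own per gene) of each of the 8 genes in the 6 libraries, with a circle for replicate 1, a triangle for replicate 2 and a line at the group mean. Nfkb2 and Relb stand apart with both agents, Chuk lies level in all groups, and the 2 points of Rela with both agents are far apart, at 93.6 and 252 CPM.

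Levels were compared between genes per kilobase of merged exons. With vehicle Rela led at 24.0 ± 1.73 CPM per kilobase (SD, n = 2), followed by Ikbkg at 17.1 ± 1.28 and Chuk at 16.2 ± 0.56, whose ranges overlapped. Nfkb2 came next at 15 ± 0.56, then Relb at 8.56 ± 0.781, Ikbkb at 5.62 ± 0.675, Rel at 2.98 ± 0.184 and Nfkb1 at 1.48 ± 0.378. With LTα1β2 Rela remained on top at 49.9 ± 1.85, while Ikbkg, Nfkb2 and Chuk, at 18.2, 17.7 and 16.7, overlapped their neighbours in the order. With both agents Nfkb2 came first at 84.7 ± 7.86, but its range overlapped that of Rela at 56.2 ± 36.3, which in turn overlapped that of Relb at 44.6 ± 8.73. The order depends on the length used. Ikbkb has 19078 bases of merged exons but 4845 in its longest transcript, which lifts its per-length level with vehicle to 22.1, and the mean of Nfkb1 (12061 against 4149 bases) then lies above that of Rel in each group. On that length Chuk, at 23.6 with vehicle, lies above Ikbkg at 19.9, and with both agents Nfkb2, at 101 ± 9.36, no longer overlaps Rela.

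Nfkb1 encodes p105, the precursor of p50. The gene lies on chromosome 3 (135584655 to 135691547, minus strand; GRCm38 coordinates of the GENCODE M21 annotation here and below). Levels were 14.6 and 21 CPM with vehicle, 26.4 and 25.8 with LTα1β2, and 22.2 and 26.8 with both agents. Every treated library was above both vehicle libraries, and the LTα1β2 values lay inside the range of the libraries with both agents. The log2 change with LTα1β2 was 0.55 ± 0.19 (SE), with an adjusted p of 0.0708 in edgeR's quasi-likelihood test with Benjamini-Hochberg adjustment over all genes tested. Over 15 other settings of that comparison the adjusted p ran from 0.00226 to 0.408, and 7 of them called the gene. The change on adding LCL161 was -0.09 ± 0.19 (edgeR adjusted p = 0.744). The 2 vehicle libraries differed 1.44-fold, a ratio that 2.92% of genes exceeded.

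Nfkb2 encodes p100, the precursor of p52, and also acts as an IkB-like inhibitor. The gene lies on chromosome 19 (46304320 to 46312385, plus strand). Its counts were 1451 and 1310 reads with vehicle, 1202.5 and 1596 with LTα1β2, and 4974 and 5404.5 with both agents. As CPM these are 67.2 and 70.8, then 76.7 and 85.3, then 363 and 414. The libraries with both agents lay far above the other 4, and both LTα1β2 libraries lay just above both vehicle libraries. Adding LCL161 to LTα1β2 changed the level by 2.26 ± 0.11 on the log2 scale (edgeR adjusted p = 2.8e-05), and all 15 other settings called it, with log2 changes of 2.10 to 2.36. The change with LTα1β2 alone was 0.23 ± 0.11 (edgeR adjusted p = 0.172) and was called in 0 of 15 other settings. Exons of Nfkb2 overlap up to 531 bases of genes on the other strand and its deposited counts were not whole in any library, so reads may have been shared with a neighbour.

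Relb encodes RelB, the partner of p52 and of p100, from chromosome 7 (19606217 to 19629438, minus strand). Its level was 31.1 and 35.4 CPM with vehicle, 46.2 and 50.3 with LTα1β2, and 149 and 197 with both agents, so the 3 groups did not overlap. It was the only member called in LTα1β2 against vehicle, at a log2 change of 0.54 ± 0.15 (edgeR adjusted p = 0.0378), or 1.45-fold. That call was lost with scaling by total counts (log2 0.35, edgeR adjusted p = 0.0771) and in 4 of the 6 fits that left out 1 library: vehicle 1 (0.246), vehicle 2 (0.0863), LTα1β2 1 (0.07) and LTα1β2 2 (0.196, all edgeR adjusted p). The further change on adding LCL161 was 1.84 ± 0.15 (edgeR adjusted p = 0.000213) and was called in all 15 other settings.

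Sequence around the transcription starts is shown for Nfkb2 and Rel because both rose with LCL161 and both windows hold matches to the kB consensus, the binding motif of NF-kB dimers. RefSeq windows (GRCm38.p6, 250 bases before to 50 after a start) were at hand for 5 of the 8 members: Nfkb2 with 3 starts, Rela, Rel, Chuk, and Ikbkg with 4 starts. Capitals mark the matches to the kB consensus, searched on both strands.
Nfkb2 first start, position -39, chr19:46304688-46304717, plus strand: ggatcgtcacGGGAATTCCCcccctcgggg
Nfkb2 first start, position -11, chr19:46304716-46304745, plus strand: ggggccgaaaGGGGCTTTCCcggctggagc
Nfkb2 second start, position -236, chr19:46305449-46305478, plus strand: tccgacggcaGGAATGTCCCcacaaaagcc
Nfkb2 second start, position 10, chr19:46305695-46305724, plus strand: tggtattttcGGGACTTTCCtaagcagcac
Rel, the bases before its GENCODE exon, chr11:23770971-23771219, minus strand: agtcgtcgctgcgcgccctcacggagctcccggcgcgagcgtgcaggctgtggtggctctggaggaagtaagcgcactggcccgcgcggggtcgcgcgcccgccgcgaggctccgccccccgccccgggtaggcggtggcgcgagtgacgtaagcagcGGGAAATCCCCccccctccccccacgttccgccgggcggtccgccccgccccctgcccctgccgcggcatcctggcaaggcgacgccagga

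Of these, the first Nfkb2 match reads the same on both strands, and a further match overlaps it at position -38, ending 1 base after the capitals. The match at position 10 of the second start also lies in the window of the third start, at position -225. The match at position -39 and that at -11 lie inside an exon of a longer GENCODE transcript. Rel holds overlapping matches at positions -92 and -91, which form the single run in capitals. No match stood in the windows of Rela, Chuk and Ikbkg, although Ikbkg also rose on adding LCL161. Relb rose too but had no window. Nfkb2 and Rel were chosen for having both a rise and a match, so that pairing is not a result. Over all 32851 RefSeq windows of this length, 8.46% held at least 1 match and 1.22% held matches at 2 or more positions. The looser pattern GGGNNNNNCC stood in 50.8% of them. A match describes these letters only.

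Rela encodes RelA (p65), the main transactivating subunit of canonical dimers, from chromosome 19 (5637483 to 5648130, plus strand). Its level was 69.9 and 77.4 CPM with vehicle and 149 and 157 with LTα1β2, groups that lay clearly apart. With both agents it was 93.6 CPM in the first library and 252 in the second, 1 below and 1 above both LTα1β2 libraries. This 2.69-fold disagreement was exceeded by 157 of 9202 genes with a mean of at least 10 CPM (1.71%). The log2 change with LTα1β2 was 1.06 ± 0.38 (edgeR adjusted p = 0.0828) and was called in 4 of 15 other settings. Against LTα1β2 alone, the change with both agents was 0.17 ± 0.37 (edgeR adjusted p = 0.758), and its direction rested on 1 library: 0.70 (edgeR adjusted p = 0.0068) without the first library with both agents, and -0.78 (edgeR adjusted p = 0.00399) without the second. Against vehicle it was 1.23 ± 0.38 (edgeR adjusted p = 0.0354), 1.76 without the first library and 0.28 (edgeR adjusted p = 0.138) without the second. That call held in 7 of 15 other settings, and in 2 of the 6 fits that left out 1 library.

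The disagreement over Rela was shared by other genes. Among the 9202 genes, 340 differed at least 2-fold between the 2 libraries with both agents, 330 of them lower in the first library and 10 lower in the second. In 316 of the 330, both LTα1β2 libraries were above both vehicle libraries, as they were in 29.6% of all genes tested. A 2-fold difference between replicates occurred for 68 genes with vehicle and 20 with LTα1β2. Guanine plus cytosine (GC) content moved with this pattern. In 326 of the 330 genes with a transcript sequence, the most GC-rich 300 bases had a median GC of 78.2%, against 63.3% in the other genes. Of the 942 genes with the highest values, 23.7% were at least 2-fold lower in the first library, against 1.3% of the rest, and their median log2 difference between LTα1β2 and vehicle was 0.43, against 0.00 in the rest. For Rela this GC was 77.7%, above that of 93.9% of genes. Relb, at 74.0%, lay above 86.6%, and Nfkb2, at 69.7%, above 74.9%. Rel had 66.7%, Chuk 63.0%, Ikbkb 62.3%, Ikbkg 59.3% and Nfkb1 56.7%. A fit with GC-dependent offsets for each library, chosen after the data were seen, gave Rela a change with LTα1β2 of 0.58 (edgeR adjusted p = 0.129), and gave Relb 0.44 (edgeR adjusted p = 0.0286). The part of GC content in the Rela levels beyond that fit was not tested.

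Rel encodes c-Rel, a transactivating subunit of haematopoietic cells, from chromosome 11 (23736847 to 23770970, minus strand). Its level was 21.2 and 23.2 CPM with vehicle, 24.5 and 22.7 with LTα1β2, and 42.0 and 39.7 with both agents. Vehicle and LTα1β2 overlapped, and both libraries with LCL161 were above the other 4. The change on adding LCL161 was 0.79 ± 0.12 (edgeR adjusted p = 0.00233) and was called in all 15 other settings, whereas LTα1β2 alone gave 0.09 ± 0.12 (edgeR adjusted p = 0.643).

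Chuk encodes IKKalpha, the kinase of both pathways, from chromosome 19 (44073335 to 44107480, minus strand). Its level was 84.7 and 80.6 CPM with vehicle, 83.7 and 86.5 with LTα1β2, and 83.5 and 77.2 with both agents. Vehicle overlapped both other groups, and the LTα1β2 libraries lay just above those with both agents. The log2 change was 0.04 ± 0.10 with LTα1β2 (edgeR adjusted p = 0.799), -0.08 ± 0.10 on adding LCL161 (0.543) and -0.04 ± 0.10 for both agents against vehicle (0.757). Scaling by total counts, which moves the median of all genes in that last comparison from 0.05 to -0.26, gave -0.35 (edgeR adjusted p = 0.0323).

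Ikbkb encodes IKKbeta, the main IkB kinase of the canonical pathway, from chromosome 8 (22659212 to 22706589, minus strand). Its level was 98.1 and 116 CPM with vehicle, 124 and 121 with LTα1β2, and 137 and 154 with both agents, groups that did not overlap. Neither single step was called, at 0.20 ± 0.12 (edgeR adjusted p = 0.274) with LTα1β2 and 0.24 ± 0.12 (0.155) on adding LCL161. Both agents against vehicle gave 0.44 ± 0.12 (edgeR adjusted p = 0.0195), or 1.36-fold, a call lost with scaling by total counts (0.323), without vehicle 1 (0.201), without LTα1β2 2 (0.0556) and without the second library with both agents (0.152).

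Ikbkg encodes NEMO, the regulatory scaffold that binds polyubiquitin chains and is needed for canonical signalling. The gene lies on chromosome X (74393290 to 74453854, plus strand). Its level was 132 and 146 CPM with vehicle, 149 and 147 with LTα1β2, and 210 and 212 with both agents. The last 2 libraries were above the other 4. The change on adding LCL161 was 0.51 ± 0.09 (edgeR adjusted p = 0.00691), and it missed the threshold without LTα1β2 1 (0.0587) or LTα1β2 2 (0.0728). Exons of Ikbkg overlap 418 bases of G6pdx on the other strand and its counts were not whole in any library.

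For LTα1β2 against vehicle, 1 of the 8 genes was called, at an adjusted p under 0.05, against 23.4% of all genes tested in either direction and 12.8% higher. The share for the members lies near or below the background. The 2 groups did not overlap for 6 of the 8, all of them higher with LTα1β2. Of all genes tested, 63.4% did not overlap in either direction, which is near that count, and 29.6% did not overlap and were higher. The median log2 change was 0.21 against -0.04 over all genes, and 3 members had an unadjusted p under 0.05, as did 35.8% of all genes. When LCL161 was added to LTα1β2, 4 of 8 were called, all higher, against 25.7% of all genes in either direction and 10.6% higher. The median change was 0.38 against 0.00 over all genes. Groups did not overlap for 6 of 8 members, with Chuk lower and the others higher. Of all genes, 67.8% did not overlap in either direction, again near that count, with 33.7% higher and 34.1% lower. For both agents against vehicle, 6 of 8 were called, all higher, against 39.5% of all genes in either direction, 18.4% higher and 21.1% lower, with a median of 0.74 against 0.05. In that comparison the changes were 2.49 ± 0.11 for Nfkb2 (edgeR adjusted p = 3.59e-06) and 2.38 ± 0.16 for Relb (edgeR adjusted p = 1.71e-05). Rel changed by 0.88 ± 0.12 (edgeR adjusted p = 0.00065) and Ikbkg by 0.60 ± 0.09 (edgeR adjusted p = 0.0017). The 3 comparisons share libraries in pairs and are not independent.

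**Figure D2:**
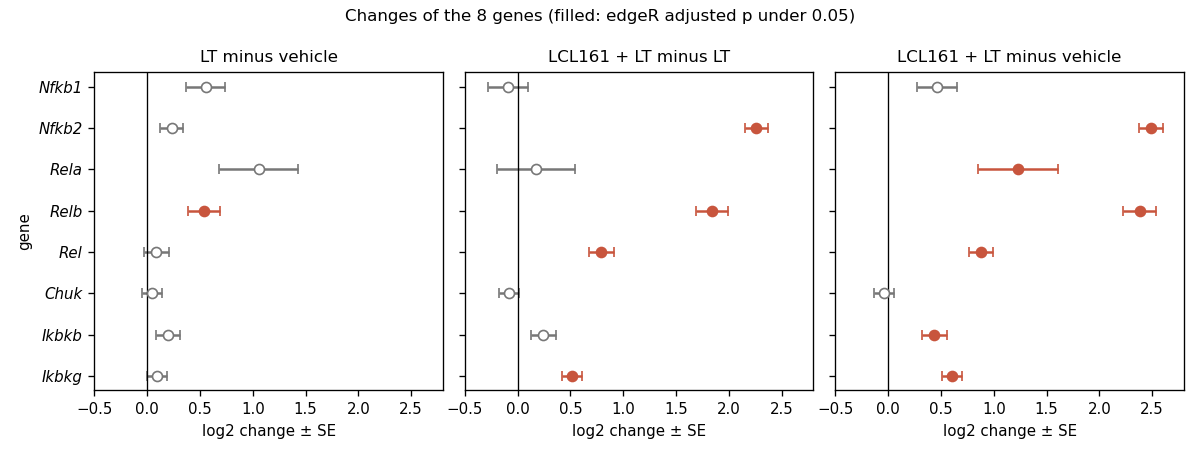
Log2 change of each gene in the 3 comparisons, with standard errors as bars and filled points for an adjusted p under 0.05. Nfkb2 and Relb lie at 2.26 and 1.84 for both agents against LTα1β2, Chuk lies within 0.10 of 0 in each comparison, and Rela has the widest bars.

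Whether the change on adding LCL161 differed from the change with LTα1β2 alone was tested directly, as the difference between the steps. It was called for 2 of 8 members, against 13.9% of all genes, 3.73% with a higher and 10.2% with a lower second step. These were Nfkb2 at 2.03 ± 0.20 (edgeR adjusted p = 0.000798) and Relb at 1.30 ± 0.27 (edgeR adjusted p = 0.0174). For Nfkb2 it was called in all 14 other settings. For Relb it was lost without vehicle 2 (0.0579), LTα1β2 1 (0.139) and LTα1β2 2 (0.114). Rel gave 0.70 ± 0.20 and missed the threshold (edgeR adjusted p = 0.058), and the other 5 members had edgeR adjusted p of 0.139 to 0.895. For Nfkb1 and Rela the second step was lower than the first, at -0.65 ± 0.32 and -0.89 ± 0.63, neither called.

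The makeup of the subunit messages within a library does not depend on the scaling between libraries. Of the summed per-length level of the 5 subunit genes, Nfkb2 took 29.6% and 28.3% with vehicle, 20.2% and 21.2% with LTα1β2, and 50.9% and 39.2% with both agents. Rela took 46.0% and 46.1%, then 58.8% and 58.2%, then 19.6% and 35.5%. So Rela held the greatest share in the 4 libraries without LCL161 and Nfkb2 in the 2 with it, with either gene length. Relb took 16.2% and 16.7%, then 14.4% and 14.7%, then 24.7% and 22.0%. The share of Rel was 5.75% and 5.69% with vehicle but 3.62% and 2.31% with both agents, although its own level rose, and Nfkb1 took 0.964% to 3.19%. With 2 libraries a group no test was made of shares, since the smallest exact p of 2 against 2 is 0.333. Each share also depends on Rela, whose level lies within the GC pattern above. Its GC-dependent log2 offsets were -0.224 and -0.179 with vehicle, 0.237 and 0.32 with LTα1β2, and -0.342 and 0.155 with both agents. With LTα1β2 the shares of Nfkb2 and Relb were lower although their own levels were higher. The part of the GC pattern in the shares was not tested.

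The ratio of precursor reads, Nfkb2 to Nfkb1, was 4.61 and 3.37 with vehicle, 2.91 and 3.3 with LTα1β2, and 16.3 and 15.4 with both agents. Reads of Relb per read of Rela were 0.445 and 0.458, then 0.309 and 0.32, then 1.59 and 0.784, with the same limit from the GC pattern. Relb per read of its partner Nfkb2 moved less, at 0.463 and 0.5, then 0.602 and 0.59, then 0.411 and 0.477. Within the kinase complex, the share of Ikbkg was 42.7% and 45.1% with vehicle, 44.4% and 43.7% with LTα1β2, and 52.3% and 52.9% with both agents. Chuk made up 43.8% and 39.6%, then 39.8% and 41.0%, then 33.1% and 30.8%. Reads of Ikbkg per read of Chuk, which do not depend on gene length, were 1.56 and 1.81, then 1.78 and 1.7, then 2.52 and 2.74. Both libraries with LCL161 thus held more scaffold messages per Chuk message than the other 4.

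**Figure D3:**
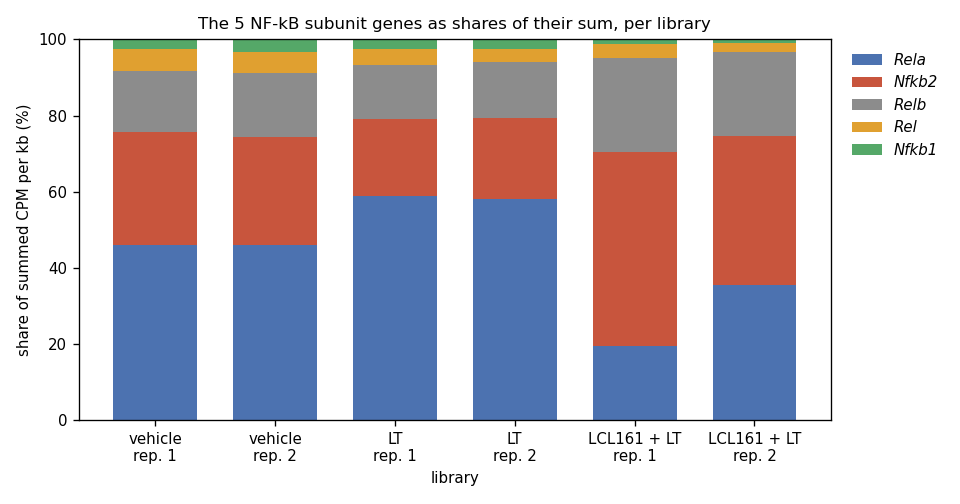
Percent of the summed CPM per kilobase taken by each of the 5 subunit genes, with 1 stacked bar per library. The share of Nfkb2 is 28.3% to 29.6% with vehicle, 20.2% to 21.2% with LTα1β2 and 39.2% to 50.9% with both agents, and that of Rela differs between the last 2 bars. All shares depend on Rela, and the part of its GC pattern in them was not tested.

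The other genes of the pathway were taken from 9 lists with 66 genes, 62 of them tested, chosen like the members with earlier results of these data known. With LTα1β2, 23 were higher and 8 lower than with vehicle, where 12.8% of all genes tested were higher and 10.6% lower, and their median was 0.27 against -0.04 over all genes. On adding LCL161, 31 were higher and 3 lower, where 10.6% of all genes were higher and 15.1% lower, with a median of 0.44 against 0.00. Both agents against vehicle gave 39 higher and 5 lower, where 18.4% of all genes were higher and 21.1% lower, with a median of 0.96 against 0.05. The counts of single lists below are read against the same shares. Leaving out vehicle 1 lowered the first count to 14 higher. The 3 lower on adding LCL161 became 7 without the second library with both agents and 1 without the first, without LTα1β2 1 or without LTα1β2 2.

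**Figure D4:**
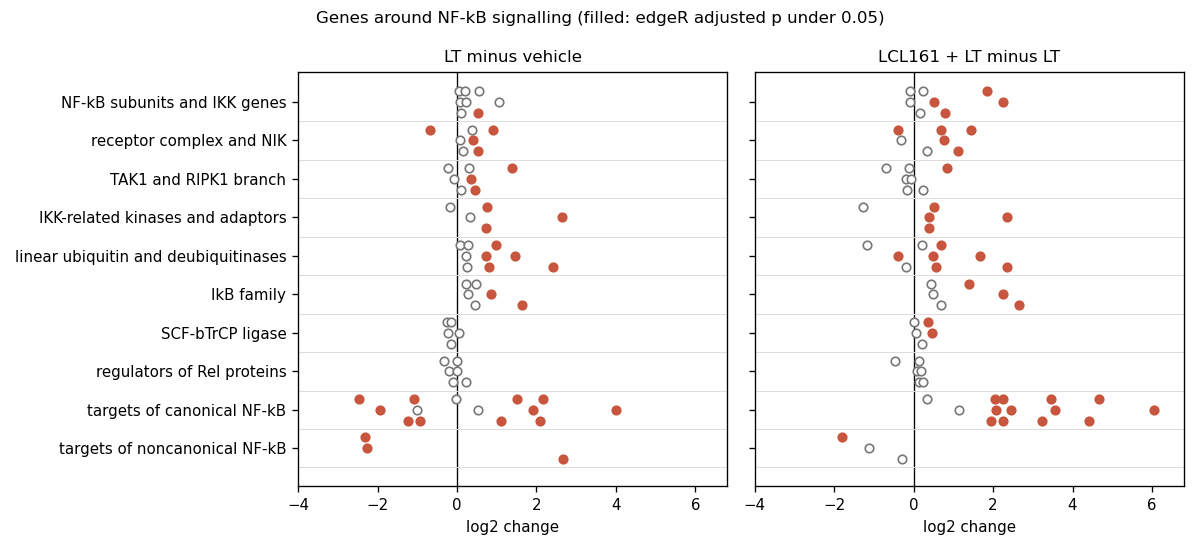
Log2 change of each tested gene of the 9 pathway lists for LTα1β2 against vehicle and for both agents against LTα1β2, with the 8 members on the top line, 1 point per gene, filled for an adjusted p under 0.05. Canonical targets reach the highest values on adding LCL161, up to 6.06, while regulators of Rel proteins lie near 0.

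At the receptor, the lists hold Ltbr, the adaptors Traf2 and Traf3, the ligases Birc2 (cIAP1) and Birc3 (cIAP2), the NIK gene Map3k14, and the deubiquitinase gene Otud7b. Of these 7, 3 rose and 1 fell with LTα1β2, and 4 rose and 1 fell on adding LCL161. Birc3 was 40.0 and 40.5 CPM with vehicle, 74.9 and 75.4 with LTα1β2, and 205 and 206 with both agents, a stepwise rise with close replicates. Its changes were 0.90 ± 0.09 (edgeR adjusted p = 0.000438) and 1.45 ± 0.09 (edgeR adjusted p = 6.86e-05). Birc2 rose by 0.54 ± 0.10 and 0.70 ± 0.10 in the same steps (edgeR adjusted p = 0.00927 and 0.00253). Traf2 was 33.5 and 32.2, then 35.4 and 37.5, then 75.5 and 83.0 CPM, and rose with LCL161 by 1.12 ± 0.11 (edgeR adjusted p = 0.000344). Map3k14 ranged from 16.5 to 22.6 CPM over the 6 libraries and was called for both agents against vehicle, at 0.41 ± 0.12 (edgeR adjusted p = 0.0274), in 6 of 15 other settings too. Its change on adding LCL161 was 0.34 ± 0.12 (edgeR adjusted p = 0.0678), and 0.45 with GC-dependent offsets (edgeR adjusted p = 0.0304). Ltbr, the receptor, rose with LTα1β2 by 0.39 ± 0.10 (edgeR adjusted p = 0.0259) and fell by 0.39 ± 0.10 on adding LCL161 (edgeR adjusted p = 0.0272), to 71.5 and 80.6 CPM. With GC-dependent offsets both calls were lost, at 0.27 (edgeR adjusted p = 0.0636) and -0.22 (edgeR adjusted p = 0.117), and the most GC-rich 300 bases of Ltbr, at 74.3%, lie above those of 87.5% of genes. Without vehicle 1 the count of 3 that rose with LTα1β2 was 1, and without vehicle 2 it was 1.

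The branch upstream of IKK around the kinases TAK1 and RIPK1 had 7 genes, of which 3 rose with LTα1β2 (Ripk1, Map3k7 and Tab2) and 1 rose on adding LCL161. The count of 3 rests on single libraries, since it was 0 without vehicle 1, vehicle 2 or LTα1β2 2, and 1 without LTα1β2 1 and with scaling by total counts. Tab2 changed by 0.46 ± 0.13 (edgeR adjusted p = 0.0339) but by -0.82 with GC-dependent offsets (edgeR adjusted p = 0.0518), and the GC of its most GC-rich 300 bases, 84.0%, lies above that of 99.6% of genes. The gene that rose with LCL161 was Traf6, an adaptor ligase, at 57.9 and 51.7 CPM with LTα1β2 and 98.6 and 96.3 with both agents, a change of 0.83 ± 0.10 (edgeR adjusted p = 0.00098). Map3k7, which encodes TAK1, was 30.6 and 37.0 CPM with vehicle, 85.3 and 89.9 with LTα1β2, and 32.1 and 76.2 with both agents. Its change with LTα1β2 was 1.38 ± 0.34 (edgeR adjusted p = 0.0232), and its libraries with both agents disagreed as those of Rela did. Among the 5 IKK-related kinases and adaptors, 3 rose with LTα1β2 and 4 on adding LCL161. The count of 4 became 1 without LTα1β2 1, without LTα1β2 2, with scaling by total counts and with no filter, and 2 when any 1 of the other 4 libraries was left out. Tank, an adaptor of TBK1, was 42.9 and 43.6, then 35.2 and 41.1, then 193 and 195 CPM. It rose with LCL161 by 2.35 ± 0.11 (edgeR adjusted p = 2.19e-05), a call made in all 15 other settings, and the difference between the steps was called as well (2.53 ± 0.19, edgeR adjusted p = 0.000246). Tbkbp1, another TBK1 adaptor, was 2.18 and 3.84, then 17.8 and 19.5, then 4.09 and 11.4 CPM, a rise with LTα1β2 of 2.65 ± 0.44 (edgeR adjusted p = 0.0051) that became 1.87 with GC-dependent offsets (edgeR adjusted p = 0.0026). The kinase genes Tbk1 and Ikbke rose with LTα1β2 by 0.72 ± 0.09 and 0.77 ± 0.11 (edgeR adjusted p = 0.00149 and 0.00279).

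NEMO binds linear ubiquitin chains, and 9 genes of their assembly and removal were examined, of which 5 rose with LTα1β2, and 5 rose and 1 fell on adding LCL161. Rnf31, Rbck1 and Sharpin, the subunits of the linear ubiquitin ligase, rose with LTα1β2, by 1.46 ± 0.10 for Rnf31 (edgeR adjusted p = 6.99e-05) and 0.98 ± 0.12 for Sharpin (edgeR adjusted p = 0.00128). Exons of Rnf31 overlap 123 bases of Irf9 on the same strand. Its counts were not whole in any library, so reads of Rnf31 may have been shared with that neighbour. On adding LCL161, Rbck1 fell by 0.40 ± 0.12 (edgeR adjusted p = 0.0462), a call made in 7 of 15 other settings, and Rnf31 changed by 0.22 ± 0.10 (edgeR adjusted p = 0.131). With GC-dependent offsets the fall of Rbck1 was not called (-0.30, edgeR adjusted p = 0.0584) and Rnf31 was called higher (0.35, edgeR adjusted p = 0.0305), so that the list had 6 higher and 0 lower. For all 3 the difference between the steps was called, from -1.17 to -1.24. Tnfaip3, which encodes the inhibitor A20, and its partner Tnip1 rose on adding LCL161. Tnfaip3 was 57.2 and 54.8 CPM with vehicle, 51.8 and 66.6 with LTα1β2, and 291 and 310 with both agents, and Tnip1 changed by 1.68 ± 0.12 (edgeR adjusted p = 0.000113). The change of Tnfaip3 was 2.35 ± 0.14 (edgeR adjusted p = 5.62e-05). Cyld, a deubiquitinase gene named after its values were seen, rose in both steps, by 0.73 ± 0.12 and 0.55 ± 0.11 (edgeR adjusted p = 0.00399 and 0.0113). Without LTα1β2 2 the 5 that rose on adding LCL161 became 3.

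All 6 IkB family genes were higher with both agents than with vehicle, and 3 rose on adding LCL161 to LTα1β2: Nfkbia, Nfkbib and Nfkbie. These encode the classical cytoplasmic inhibitors. Nfkbie was 25.7 and 28.8 CPM with vehicle, 44.9 and 53.4 with LTα1β2, and 292 and 324 with both agents. Its second step was 2.65 ± 0.13 (edgeR adjusted p = 2.36e-05), and that of Nfkbia was 2.26 ± 0.16 (edgeR adjusted p = 0.000121). With LTα1β2 alone Nfkbie and Bcl3 of this list were called, at 0.85 ± 0.13 and 1.64 ± 0.34 (edgeR adjusted p = 0.00286 and 0.0119). Bcl3, a nuclear IkB that binds p50 and p52, was 52 and 118 CPM in the 2 libraries with both agents. With GC-dependent offsets its first change was 0.87 (edgeR adjusted p = 0.00949). DESeq2, the replicate block and GC-dependent offsets each called 3 genes of this list in that step, Nfkbib being at 0.46 ± 0.15 (edgeR adjusted p = 0.0571) and, with the offsets, at 0.43 (edgeR adjusted p = 0.0386). GC-dependent offsets also raised the 3 on adding LCL161 to 5. Without vehicle 1 the count of 2 was 1, and the 6 higher against vehicle became 4 without vehicle 1 and 4 without the second library with both agents.

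The SCF-bTrCP ligase, which ubiquitinates phosphorylated IkB and p100, had 0 of 5 genes called with LTα1β2 in edgeR, limma voom and DESeq2, with 2 lower at an unadjusted p under 0.05. These were Cul1 (-0.26 ± 0.10, edgeR adjusted p = 0.11) and Skp1a (-0.22 ± 0.09, edgeR adjusted p = 0.111). It had 2 called on adding LCL161: Fbxw11 (0.35 ± 0.10, edgeR adjusted p = 0.0375) and Rbx1 (0.46 ± 0.10, edgeR adjusted p = 0.0111). That count was 0 without LTα1β2 1, LTα1β2 2 or the second library with both agents and with no filter, 1 when any 1 of the other 3 libraries was left out, and scaling by total counts turned the 0 with LTα1β2 into 3 lower. Regulators of Rel proteins had 0 of 6 called in either step by the same 3 tools, with 0 and 1 at an unadjusted p under 0.05 in edgeR. On adding LCL161, GC-dependent offsets called 1 higher, and scaling by total counts, no filter and leaving out the second library with both agents each called 1 lower. Pdlim2, a ligase for nuclear RelA, was lower with both agents than with vehicle, at -0.79 ± 0.17 (edgeR adjusted p = 0.00711).

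Of 14 canonical targets, 6 rose and 5 fell with LTα1β2, while 12 rose and 0 fell on adding LCL161 (edgeR, as in limma voom and DESeq2; 13 higher and 0 lower at an unadjusted p under 0.05). Without LTα1β2 2 or without vehicle 1 the 6 became 4, while the count on adding LCL161 was 12 in each fit that left out 1 library. Icam1, an adhesion molecule, was 65.5 and 75.9, then 310 and 327, then 1400 and 1660 CPM, a rise of 2.17 ± 0.13 and 2.26 ± 0.13 (edgeR adjusted p = 2.96e-05 and 4.94e-05). The prostaglandin synthase gene Ptgs2 moved in opposite directions, from 117 and 127 to 46.8 and 56.0 and then to 597 and 609 CPM. Its changes were -1.25 ± 0.11 and 3.55 ± 0.12 (edgeR adjusted p = 0.000305 and 7.84e-06). Cxcl2, a neutrophil-attracting chemokine, did likewise, with -2.47 ± 0.14 and 3.45 ± 0.15 (edgeR adjusted p = 2.85e-05 and 1.53e-05). Nos2, the inducible nitric oxide synthase, went from 0.556 and 0.324 to 5.74 and 8.77 and then to 456 and 518 CPM, with a second step of 6.06 ± 0.22 (edgeR adjusted p = 9.13e-06).

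Of 7 noncanonical targets known mainly from lymphoid stroma, 3 passed the filter. Cxcl12, a chemokine of stromal cells, was 370 and 197 CPM with vehicle, 47.9 and 66.2 with LTα1β2, and 17.4 and 15.3 with both agents. It fell by 2.31 ± 0.29 and 1.80 ± 0.30 in the 2 steps (edgeR adjusted p = 0.00141 and 0.00472), and 7 of the 8 tested stromal markers were called lower in both steps too. Over all genes tested, 10.6% were called lower with LTα1β2 and 15.1% on adding LCL161. The part of stromal cells in the result for Cxcl12 was not tested. Tnfsf13b (BAFF) was 0.694 and 0.865, then 4.98 and 4.87, then 5.18 and 2.91 CPM, and rose with LTα1β2 by 2.65 ± 0.34 (edgeR adjusted p = 0.00151). Tnfsf11 (RANKL) was 3.38 and 3.08, then 0.511 and 0.802, then 0.292 and 0.306 CPM. It was lower with LTα1β2, at -2.27 ± 0.35 (edgeR adjusted p = 0.00354), on 8 and 15 reads in the LTα1β2 libraries. The part of stromal cells in the result for Tnfsf11 was not tested either. Cxcl13, Ccl19, Ccl21a and Madcam1 were under 1 CPM in every library.

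Among the members, log2 CPM over the 6 libraries correlated most between Rel and Ikbkg (r = 0.992), Nfkb2 and Relb (0.988) and Nfkb2 and Ikbkg (0.986). These are descriptions over 6 points that share their libraries and fall into 3 groups. For each member, 8661 other genes with a mean of at least 10 CPM were ranked by the same r, the remaining members among them. Predicted gene models (Gm or Rik names) and names that start with a digit were left out of this ranking. Closest to Nfkb2 were Slpi (0.9994) and Ptges (0.9989), and 4.55% of genes exceeded 0.95. Closest to Relb were Il1b and Nr1h3 (both 0.9986), to Rel Wtap (0.9984) and C9orf72 (0.9976), and to Ikbkg Tiparp (0.9991) and Hmox1 (0.9990). Nearest to Rela were Smdt1 (0.9950) and Trappc1 (0.9923), nearest to Ikbkb Tmem170b (0.9892) and Fam57b (0.9886), and nearest to Nfkb1 Srp14 (0.9876) and Rab4b (0.9866). Chuk had the fewest close genes, led by Pole3 (0.9695) and Abhd2 (0.9607), with 5 genes over 0.95.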

How the data were processed

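For each of the 6 libraries the authors deposited expected counts by gene symbol, not normalised, with 66.6% of the non-zero values whole. The submitters' processing notes name the build GRCm38 and the tools DESeq2 1.26.0 and STAR 2.7.3a. For the counting program, its annotation and strand, no statement stands in the labels, so counts of overlapping genes are uncertain. All columns were mapped to a sample by title, which left 0 unmapped.

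Expected counts were rounded and fitted in edgeR 4.0.16 under R 4.3.3 (TMM, factors of 0.874 to 1.15; filterByExpr with a minimum of 10 reads; a group-means design with all 6 libraries; two-sided glmQLFTest after glmQLFit; Benjamini-Hochberg over 18812 genes; calls at an adjusted p under 0.05). The filter left out 36211 genes. Variation between replicates was 13.6% (biological coefficient), and the fit had 3 residual degrees of freedom and 4.59 prior ones. Errors of fold changes are log2 changes divided by the square root of F. The same edgeR steps were tried on simulated counts, for LTα1β2 against vehicle only. Those counts held no GC pattern and no disagreeing library, so the trial cannot speak to these features of the data. Levels are CPM on TMM-scaled totals, and per-length levels use GENCODE M21 exons of GRCm38. Log2 CPM used a prior count of 0.5.

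Named are all 8 members, up to 2 tested genes per pathway list and comparison with the smallest p, and for each member the 2 most correlated genes; others, such as Map3k14, Rbck1 and genes of counts of 5 or fewer, were named after their values were seen. The members and lists were chosen with earlier results of these data known. Alternatives used other scalings, filters, samples and tools (limma voom 3.58.1, DESeq2 1.42.0), a replicate block, and each library left out. A fit with GC-dependent offsets (lowess on the most GC-rich 300 bases of the longest transcript, span 0.2) was added after the data were seen.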

Additional observations from a re-analysis of the deposited data

How the results depend on the processing

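The count of members called for LTα1β2 against vehicle, 1, became 0 with scaling by total counts, 3 with no filter beyond 1 read, 2 with the replicate block, 3 with only the groups compared and 2 with limma voom, and ran from 0 to 3 when 1 library was left out. With LCL161 added to LTα1β2 the count of 4 ran from 3 to 5 when 1 library was left out. For both agents against vehicle the count of 6 ran from 4 to 6. The step difference, 2 members, became 4 with no filter and ran from 1 to 3 when 1 library was left out. With the replicate block the counts were 2, 4, 6 and 2. Deviations of same-numbered libraries correlated at 0.192, 0.0822 and 0.152 across genes. With 2 libraries a group, these values cannot show whether same-numbered libraries share a culture or animal. Directions turned, for changes not called in the fit reported above, as follows. With scaling by total counts, LTα1β2 against vehicle gave -0.10 for Rel, -0.15 for Chuk and -0.10 for Ikbkg. With LCL161 added, voom gave Rela -0.00058, leaving out the first library with both agents gave Nfkb1 0.0201 (range without 1 library -0.299 to 0.0201), Rela ran from -0.776 to 0.696 without 1 library, and GC offsets gave Chuk 0.0376. For both agents against vehicle, Chuk gave 0.00995 with the filter of 1 CPM and 0.0467 with GC offsets. For the step difference, GC offsets gave Chuk 0.0284, and Ikbkb gave -0.169 with no filter and ran from -0.119 to 0.131 without 1 library, turning without vehicle 2, either LTα1β2 library or the second library with both agents. The cause of these changes was not tested. Over all genes, calls for LTα1β2 against vehicle fell from 4401 to 1930 without vehicle 1, 2807 without vehicle 2, 2457 without LTα1β2 1 and 2499 without LTα1β2 2. With LCL161 added they fell from 4832 to 2332 without LTα1β2 2, and against vehicle from 7431 to 4885 without vehicle 1. For the step difference they were 2617, against 4103 with no filter, 1692 without vehicle 1, 1438 without LTα1β2 1 and 794 without LTα1β2 2. Scaling by total counts moved the share of higher calls from 54.8% to 33%, from 41.2% to 28% and from 46.6% to 24.6%. Lengths of the longest transcript moved 16 of the shares of subunits and kinases by more than 1 SD. The lowest member level was 14.6 CPM, and each group had 2 libraries.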
